A study of Mus musculus with 4 samples.

Results

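Heat shock proteins and chaperonins were examined in laser-captured mouse Purkinje cells. A gene was taken as a member when the platform annotation gave its probe set a single symbol that begins with Dnaja, Dnajb, Dnajc, Hspa or Hsp90 or with Cct and a subunit number, or that is Hsph1, Hspd1, Hspe1 or Tcp1. This gave 72 of 18193 named genes and 182 of 34945 probe sets with 1 symbol, and 3 further probe sets that carry the symbol Dnajc19 beside a pseudogene were left out. Purkinje cells, large inhibitory neurons that carry the output of the cerebellar cortex, came from frozen sagittal sections of intact, untreated male C57BL/6J mice aged 8 weeks. The sources used here do not say how the cells were recognized for laser capture. Their RNA, about a nanogram per sample, was amplified in 2 cycles, labelled with biotin and read on Affymetrix arrays. The single group held 4 samples, 2 per mouse, called 1-1, 1-2, 2-1 and 2-2 by animal and sample. The labels do not say whether the samples of an animal were separate captures, so a p-value between the animals reflects the spread of these samples alone, which may be technical.

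Chaperones bind unfolded or partly folded proteins and help them to fold, to reach their compartment or to be degraded. Hsp70 proteins bind and release short hydrophobic stretches in a cycle driven by ATP. J-domain proteins of the DNAJA, DNAJB and DNAJC classes bring them substrates and stimulate ATP hydrolysis, and Hsp110 proteins exchange the nucleotide. Hsp90 acts on nearly folded clients such as kinases and nuclear receptors. The mitochondrial Hsp60 and Hsp10 pair and the cytosolic CCT complex enclose their substrates in a chamber, actin and tubulin being the best known clients of CCT. In Purkinje cells, which degenerate in many inherited ataxias, these genes are of interest because several of the ataxia proteins misfold.

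Levels are log2 signals after quantile normalization, which gives every array the same distribution of values, and each gene is represented by its probe set with the highest mean. A probe set's level depends on its own sequence as well as on the RNA, so a difference in level between genes is not read as a difference in RNA. As a background bound, each array's 95th percentile over 78 genes known from other organs was taken. It lay between 5.73 (sample 2-2) and 6.28 (sample 1-2). The labelled cell type was checked first. All 12 measured Purkinje cell markers passed the bound on all 4 arrays, among them Calb1, Pcp2 and Car8, as did 9 of 12 astrocyte and Bergmann glia markers, 4 of 11 granule cell markers and 3 of 11 oligodendrocyte markers. The 4 granule cell markers that passed were Zic1 (9.77 to 11.36 over the samples), Gabra6 (8.38 to 10.12), Cbln1 (7.52 to 9.14) and Neurod1 (6.44 to 8.75), while Pax6 and Slc17a7 lay below the bound on all 4 arrays. The median deposited signal of the arrays ran from 8.40 in sample 1-1 to 11.4 in sample 2-2. Precision is limited by having 4 arrays.

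Signal above the background bound was found on all 4 arrays for 43 of the 72 genes (59.7%). A further 13 genes passed on 1 to 3 arrays, and 16 did not pass on any. Among all named genes 25.8% lay above it on all 4 arrays and 58.2% on none. A gene with several probe sets is scored by the brightest, and 47 of the 72 members had several. Of the 18193 named genes 9010 did, and the part of this in the shares was not tested. All 3 Hsp110 genes, both measured Hsp90 genes, Hspd1 and Hspe1, and all 4 DNAJA genes passed on all 4 arrays. Passing were also 8 of 10 CCT genes, 6 of 11 Hsp70 genes, 7 of 13 DNAJB genes and 11 of 27 DNAJC genes. DNAJC was the class with most genes near the bound, since 11 of its 27 genes passed on only 1 to 3 arrays. Its count of 11 was 21 with the bound at the 90th percentile (37.6% of all named genes) and 6 at the 99th (15.8% of all). Without probe sets ending in _s_at, _x_at or _a_at, which can bind several transcripts, 5 of 9 CCT genes, 3 of 10 Hsp70 genes, 1 of 1 Hsp90 gene and 1 of 2 Hsp60 and Hsp10 genes passed. In that setting 22.8% of all named genes passed. In captured tissue, fewer cells that express a gene and less RNA per cell cannot be told apart.

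**Figure D1:**
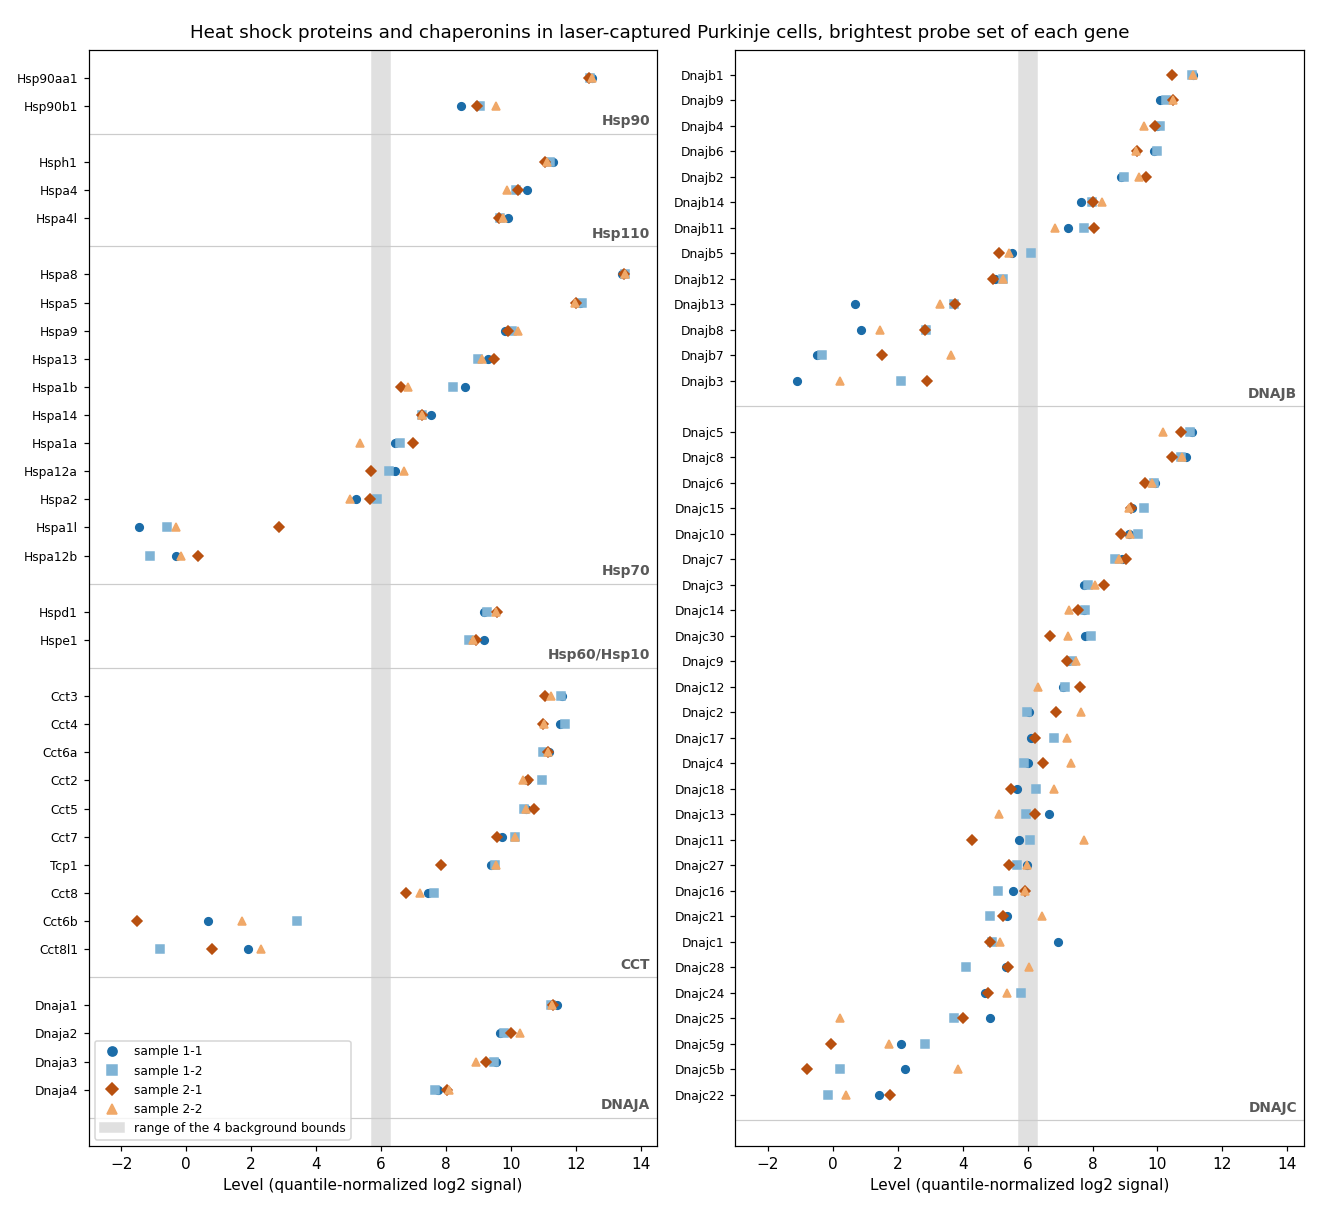
Level of each of the 72 genes (x axis, quantile-normalized log2 signal) in samples 1-1, 1-2, 2-1 and 2-2, with genes grouped by class and the grey band spanning the background bounds of the 4 arrays from 5.73 to 6.28. The 4 points of Hspa8, Hsp90aa1 and Dnaja1 nearly coincide, those of Hspa1b separate by animal, and the low points of germline genes such as Hspa1l and Cct6b scatter to the left of the band.

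Hsp70 genes with a housekeeping role gave clear signal on their brightest probe sets. Hspa8, the constitutive cytosolic Hsp70 that also uncoats clathrin vesicles, was at 13.44, 13.52, 13.50 and 13.52 in samples 1-1, 1-2, 2-1 and 2-2. Its deposited signals rose with the brightness of the arrays, from 9581 in sample 1-1 to 14289 in sample 2-2. The normalized values had an SD of 0.02 (n = 2 animals). They lie near the top rank of each array, and the part of the rank in this SD was not tested. Its other probe sets were at 10.71, 9.89 and 3.92 on average, the last below the bound on all 4 arrays.

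Hspa5, the Hsp70 of the endoplasmic reticulum (BiP), was at 12.12, 12.19, 12.00 and 11.98. Hspa9, the mitochondrial Hsp70 (mortalin), was at 9.83, 10.03, 9.90 and 10.21, and its samples from the animals overlapped. Hspa13, a microsomal member, was at 9.31, 8.98, 9.49 and 9.12, also with overlap. Hspa14, a ribosome-associated member, was at 7.53, 7.26, 7.25 and 7.27, with sample 1-1 above the other 3.

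The stress-inducible Hsp70 genes Hspa1a and Hspa1b, neighbouring copies with nearly the same sequence, did not follow each other. Hspa1b was at 8.59, 8.23, 6.62 and 6.84 (probe set 1452318_a_at), so both samples of animal 1 were above both of animal 2. Hspa1a was at 6.44, 6.60, 6.98 and 5.37 and passed the bound on 3 arrays. The other Hspa1b probe sets, 1427127_x_at and 1427126_at, averaged 4.76 and 2.81 and passed on 1 array and on none. Because transcripts of these copies can bind the same probes, the split of signal between them is uncertain.

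In RefSeq's promoter table (GRCm38.p6) the 250 bases before the start are alike at 247 positions (98.8%) in Hspa1a and Hspa1b. Both were searched for the binding element of heat shock factors, inverted GAA units, because the pair is the classical heat shock target. The stretch from 140 to 61 bases before the Hspa1a start, chr17:34972217-34972296 on the minus strand, is printed 5′ to 3′ with the GAANNTTC pair in capitals, and the same 80 bases precede Hspa1b at chr17:34959299-34959378.
Hspa1a: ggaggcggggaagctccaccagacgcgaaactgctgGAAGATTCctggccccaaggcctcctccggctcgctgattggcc

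The remaining Hsp70 genes gave little signal. Hspa12a, a distant member known from brain, was at 6.42, 6.24, 5.69 and 6.72 and passed on 2 arrays. Hspa2, best known for its role in sperm formation, lay between 5.06 and 5.89 and passed on none, like the testis gene Hspa1l (-1.45 to 2.87) and Hspa12b, a gene of blood vessel endothelium (-1.10 to 0.36).

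Hsp110 genes, which act as exchange factors for Hsp70, gave signal in every sample. Hsph1 was at 11.31, 11.21, 11.06 and 11.13, Hspa4 at 10.50, 10.15, 10.22 and 9.87, and Hspa4l at 9.90, 9.67, 9.65 and 9.76. Between the highest and lowest sample Hsph1 differed by 0.26, Hspa4l by 0.25 and Hspa4 by 0.63. The median of this range over members above the bound on all 4 arrays was 0.51. All 5 probe sets of Hspa4l passed the bound on all 4 arrays, with means from 7.01 to 9.74.

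Hsp90aa1, the inducible cytosolic Hsp90, was at 12.51, 12.43, 12.40 and 12.49 on its brightest probe set (1438902_a_at). Its range over the samples was 0.10 there. On the probe set 1437497_a_at it was at 11.68, 11.71, 12.23 and 12.29, so that both samples of animal 2 lay above both of animal 1. Hsp90b1, the Hsp90 of the endoplasmic reticulum (Grp94), was at 8.48, 9.06, 8.95 and 9.55 on 1415889_a_at, with overlap. On 1438040_a_at it was at 7.89, 8.05, 9.61 and 9.31, with both samples of animal 2 higher.

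Chaperones of the endoplasmic reticulum are induced together when unfolded protein accumulates there, through an element that joins a CCAAT box to CCACG at a fixed distance. Over the 250 bases before the start, on both strands, CCAAT followed by 9 bases of any kind and CCACG was found in 3 of 59 members with a promoter in the table (5.08%) and in 0.130% of the 27025 genes of the table. The 3 genes, Hspa5, Hsp90b1 and Dnajc3, all encode proteins of this compartment. Their windows are shown because they carry this shared element, in capitals, in 1 copy in Hspa5 and Dnajc3 and in 2 copies of opposite orientation in Hsp90b1. They lie at chr2:34771980-34772059 (plus strand), chr10:86705515-86705674 (minus strand) and chr14:118937782-118937861 (plus strand).
Hspa5: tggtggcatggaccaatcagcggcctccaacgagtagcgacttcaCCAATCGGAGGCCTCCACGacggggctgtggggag
Hsp90b1: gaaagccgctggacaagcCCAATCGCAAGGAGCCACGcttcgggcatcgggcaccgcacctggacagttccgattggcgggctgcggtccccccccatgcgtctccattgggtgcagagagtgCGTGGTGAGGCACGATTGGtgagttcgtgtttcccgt
Dnajc3: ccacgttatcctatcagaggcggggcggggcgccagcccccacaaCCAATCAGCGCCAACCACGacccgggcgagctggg

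In the comparison of the animals given below, none of the genes that share the element was called. Hspa5 had a range of 0.21 over the samples, and its samples from animal 2 were the lower ones. Its mean level was 12.08, against 9.01 for Hsp90b1 and 8.01 for Dnajc3, and the part of level in its range was not tested. Dnajc3, a J-domain protein of the lumen that also inhibits the stress kinase PERK, was at 7.73, 7.87, 8.36 and 8.09 (1433887_at), with the samples of animal 2 higher. Of 12 members placed in the endoplasmic reticulum, 8 passed the bound on all 4 arrays (66.7%). That is near the 59.7% of all 72 members, against 25.8% of all named genes. Other members there were Dnajb9, a BiP cochaperone, at 10.07, 10.26, 10.49 and 10.47, Dnajc10, a reductase, at 9.12, 9.41, 8.88 and 9.17, and Dnajb11, at 7.23, 7.75, 8.06 and 6.83. Dnajc10 and Dnajb11 were named after their values were seen.

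J-domain genes of the DNAJA class, the closest relatives of bacterial DnaJ, all gave signal on their brightest probe sets. Dnaja1 was at 11.41, 11.24, 11.29 and 11.26, and all 3 of its probe sets passed on all 4 arrays. Dnaja2 was at 9.67, 9.79, 10.00 and 10.28, with both samples of animal 2 higher. The mitochondrial Dnaja3 was at 9.54, 9.49, 9.23 and 8.94, with both samples of animal 2 lower. Its other probe sets, 1420629_a_at and 1432066_at, averaged 1.57 and 1.54, below the bound on all 4 arrays.

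In the DNAJB class, Dnajb1, the heat-inducible partner of Hsp70, was at 11.10, 11.08, 10.46 and 11.11, with sample 2-1 alone below the rest. Dnajb4 was at 10.00, 10.07, 9.91 and 9.58. Dnajb6, which suppresses aggregation of polyglutamine proteins, was at 9.89, 10.00, 9.37 and 9.35, with both samples of animal 1 higher. Other Dnajb6 probe sets averaged 4.72, 2.07 and 0.65, below the bound on all 4 arrays. Dnajb2, a neuronal J-domain protein with ubiquitin-interacting motifs, was at 8.88, 8.98, 9.64 and 9.43, with both samples of animal 2 higher. These last 2 genes separated the animals in opposite directions.

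Among DNAJC genes, several act on synaptic vesicles and in endocytosis. Dnajc5, the cysteine string protein of synaptic vesicles, was at 11.05, 11.01, 10.72 and 10.16. Dnajc6, auxilin, which recruits Hspa8 to clathrin coats, was at 9.91, 9.89, 9.63 and 9.83. Other Dnajc6 probe sets averaged 2.31, 1.61 and 1.26, below the bound on all 4 arrays. On their brightest probe sets, Dnajc5 and Dnajc6 both had animal 2 below animal 1 in every sample. Dnajc13, an endosomal protein, was close to the bound at 6.65, 5.94, 6.23 and 5.11 and passed on 2 arrays. Dnajc8, a splicing-associated member, was at 10.89, 10.72, 10.46 and 10.76.

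The mitochondrial chaperonin genes Hspd1 (Hsp60) and Hspe1 (Hsp10) are neighbours that point away from each other, with 216 bases between the Hspe1 start and the listed Hspd1 start nearest its own gene body. Hspd1 was at 9.16, 9.27, 9.59 and 9.53, with both samples of animal 2 higher. Hspe1 was at 9.16, 8.72, 8.94 and 8.85, with overlap. On its dimmer probe set 1422579_at, above the bound on 2 arrays, Hspe1 was higher in both samples of animal 2 (0.50 ± 0.60, SE, limma). Neither gene was called between the animals, with Hspd1 at 0.34 ± 0.19 and Hspe1 at -0.05 ± 0.25 on its brightest probe set. The 2 genes share the stretch between them, and whether their differences were unlike was not tested.

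Within that stretch a 3-unit heat shock element was found, GAANNTTC followed by NNGAA, searched on both strands. It is shown because the genes share it. It occurred in 3 of 59 members with a promoter, namely Hspd1, Hspe1 and Dnajb6, and in 0.514% of all genes of the table, with the element of Hspd1 and Hspe1 being the same bases. In the 30 bases at chr1:55088053-55088082 (plus strand, 95 to 66 before the Hspe1 start) overlapping matches on both strands make a continuous run, given in capitals. The Dnajb6 window covers the 80 bases before the more upstream of its starts, chr5:29735818-29735897 (plus strand). The shorter pairs GAANNTTC and TTCNNGAA, which the 3-unit element contains, were found in 10 and 7 of the 59 members, and in 7.73% and 8.11% of all genes. Such matches describe letters, not bound sites.
Hspe1: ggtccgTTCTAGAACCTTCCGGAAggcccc
Dnajb6: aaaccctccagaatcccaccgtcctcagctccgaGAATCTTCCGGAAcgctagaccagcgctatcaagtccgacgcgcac

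CCT subunits form a ring of different but related proteins, and every measured subunit of the somatic complex gave signal on all 4 arrays on its brightest probe set. Cct3 was at 11.59, 11.56, 11.06 and 11.23, and Cct4 at 11.53, 11.66, 10.99 and 11.03. In both genes the samples of animal 1 were the higher ones. Cct8, at 7.45, 7.63, 6.77 and 7.19, separated the samples in the same direction. Below the bound on all 4 arrays were the probe sets 1449645_s_at, 1451915_at and 1439679_at of Cct3, 1415868_at of Cct4 and 1436973_at of Cct8.

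The other subunits overlapped between the animals. Cct6a was at 11.18, 10.99, 11.15 and 11.16, Cct2 at 10.51, 10.97, 10.52 and 10.37, Cct5 at 10.47, 10.40, 10.71 and 10.46, and Cct7 at 9.74, 10.13, 9.59 and 10.12. Tcp1, the alpha subunit, was at 9.39, 9.51, 7.84 and 9.55. Sample 2-1 alone was low for Tcp1, while the other 3 samples lay between 9.39 and 9.55.

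The testis form Cct6b and Cct8l1 were below the bound on all 4 arrays. They belong to 10 members known mainly from the germline, with Hspa1l, Hspa2, Dnajb3, Dnajb7, Dnajb8, Dnajb13, Dnajc5b and Dnajc5g. All 10 lay below the bound on every array, where 58.2% of all named genes did.

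Of 11 measured members classed as heat-inducible, 10 passed the bound on all 4 arrays, and the exception was Hspa1a with 3 arrays. Mitochondrial members passed in 6 of 8 cases. Among all 72 members 59.7% passed on all 4 arrays, and among all named genes 25.8%.

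Animal 2 was then compared with animal 1 by limma over the 9890 probe sets with at least 2 arrays above the bound, which leaves 2 residual degrees of freedom. The labels of the animals are alike, so the comparison describes how far these captures differ. One chaperone gene was higher in animal 2 on a single probe set. Hsp90aa1 was higher by 0.57 ± 0.07 on the log2 scale (SE, n = 2 samples per animal, adjusted p = 0.0436) on 1437497_a_at. Its other tested probe sets were not called and stood at -0.02 ± 0.07 (1438902_a_at) and -0.22 ± 0.13 (1426645_at).

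That call was 1 of 90 member probe sets tested, against 0.445% of all probe sets tested (0.263% higher and 0.182% lower in animal 2). At an unadjusted p under 0.05 there were 13 of the 90 (14.4%), 6 higher and 7 lower, against 19.1% of all probe sets. The call was lost without either sample of animal 1 and under several other settings. Its adjusted p was 0.416 without sample 1-1, 0.335 without 1-2, 0.0122 without 2-1 and 0.0218 without 2-2. It was 0.0727 with arrays scaled to equal trimmed means, 0.225 with no filter on dim probe sets and 0.300 with no mean-variance trend.

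**Figure D2:**
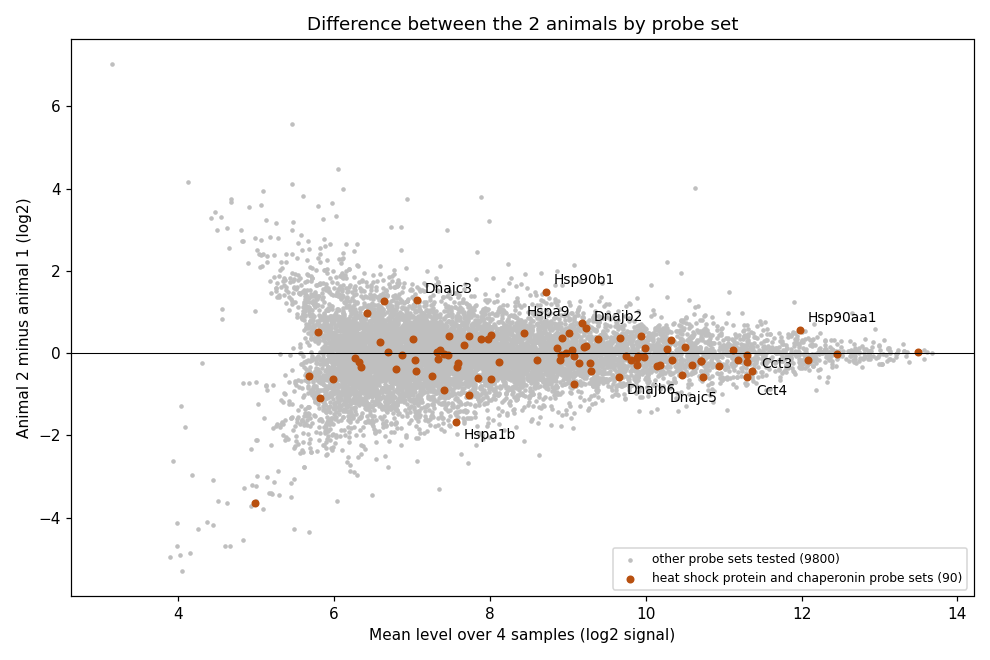
Difference between the animals (y axis, animal 2 minus animal 1, log2) against mean level (x axis, log2 signal) for the other probe sets tested, in grey, and the 90 heat shock protein and chaperonin probe sets, in orange. Hsp90aa1 at 0.57 is the member called, Hsp90b1 and Dnajc3 lie above it at lower levels, and Hspa1b lies at -1.68.

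Smallest p-values among the other positive differences belonged to Hsp90b1, Dnajc3, Hspa9 and Dnajb2. Hsp90b1 stood at 1.49 ± 0.25 (SE, limma, adjusted p = 0.0652) on 1438040_a_at and Dnajc3 at 1.28 ± 0.37 (adjusted p = 0.156) on 1449372_at. Hspa9 stood at 0.73 ± 0.24 (adjusted p = 0.186) on 1418504_at and Dnajb2 at 0.61 ± 0.21 (adjusted p = 0.202). None of these passed the threshold. On the deposited scale, where the median of all genes is shifted by 0.46, Hsp90b1 (2.00, adjusted p = 0.0197), Dnajc3 (1.85, adjusted p = 0.0415) and Dnajb2 (1.11, adjusted p = 0.0411) passed by limma. After quantile normalization, the brightest probe sets of the genes that have another stood closer to 0, at 0.48 ± 0.31 for Hsp90b1, 0.43 ± 0.29 for Dnajc3 and 0.13 ± 0.19 for Hspa9.

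With a negative difference, Cct4 stood at -0.58 ± 0.10 (SE, limma, adjusted p = 0.0674), Hspa1b at -1.68 ± 0.33 (adjusted p = 0.0816) and Cct3 at -0.43 ± 0.10 (adjusted p = 0.117). Dnajb6 and Dnajc5 stood at -0.58 ± 0.18 (adjusted p = 0.166) and -0.59 ± 0.20 (adjusted p = 0.185). None was called. On the deposited scale Cct4 stood at -0.14, Cct3 at -0.01, Dnajb6 at -0.11, Dnajc5 at -0.16 and Hspa1b at -1.12, none of them called. When a probe set had to pass the bound on all 4 arrays to be tested, Hsp90b1 (adjusted p = 0.0345), Cct4 (adjusted p = 0.0363) and Hspa1b (adjusted p = 0.0475) passed, each with its difference as above, among 178 probe sets in all. These 3 also passed without sample 2-1 or 2-2, with adjusted p from 0.0218 to 0.0258, and not without 1-1 or 1-2, with adjusted p from 0.447 to 0.682. Dnajc5 stood at -0.87 (limma, adjusted p = 0.0148) without 2-1 and at -0.31 (adjusted p = 0.131) without 2-2. Cct3 passed without 2-2 (-0.53, limma, adjusted p = 0.0260). Over all probe sets, 835 passed without 2-1 and 925 without 2-2, against 1 without 1-1, 2 without 1-2 and 44 with all samples.

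Probe sets of the same gene often disagreed. Of 24 members with several probe sets tested, 12 had differences of both signs (50%), as did 46.9% of all such genes. Cct4, for example, stood at -0.54 ± 0.15 on 1438560_x_at but at 0.42 ± 0.32 on 1456082_x_at (SE, limma), while all 3 probe sets of Cct2 were negative, from -0.62 to -0.30. Of 32 members with several probe sets whose brightest passed the bound on all 4 arrays, 20 had another below it on all 4 (62.5%), against 72.8% of all such genes.

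**Figure D3:**
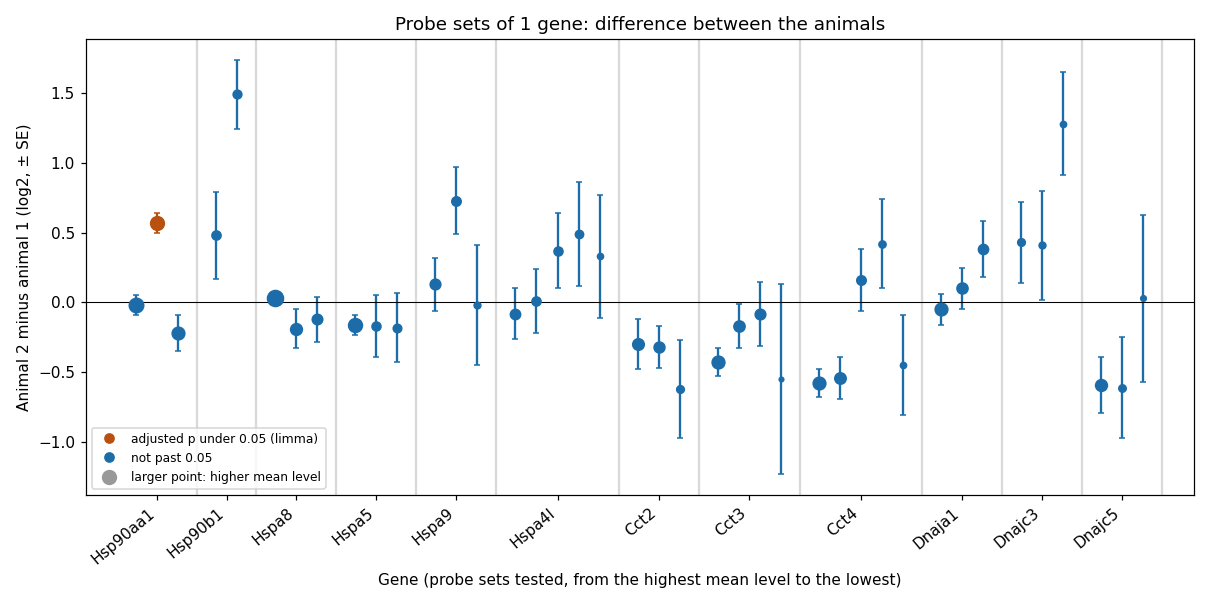
Difference between the animals (y axis, log2, with SE bars) for each tested probe set of 12 genes, ordered within a gene from the highest mean level to the lowest, with larger points for higher levels. The single probe set past an adjusted p of 0.05 belongs to Hsp90aa1, and the probe sets on both sides of it lie at -0.02 and -0.22.

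Over the 49 members whose brightest probe set was tested, the median difference between the animals was -0.13, against -0.06 for all named genes tested. In 9 of the 49 both samples of animal 2 were higher (23.8% of all genes tested) and in 14 both were lower (26.6% of all). On the deposited scale the median of all genes was 0.46 and that of the members 0.39, so its sign depends on the scaling. By class the median was -0.36 for 8 CCT genes, -0.13 for 8 Hsp70 genes, -0.17 for 15 DNAJC genes and 0.15 for 4 DNAJA genes. Members of the endoplasmic reticulum had a median of 0.24 over 8 genes and heat-inducible members one of -0.08 over 11.

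Several lists of markers of other cells differed between the same samples. Granule cell markers had a summed linear level of 3966 and 5016 in samples 1-1 and 1-2 and of 1813 and 1988 in 2-1 and 2-2, and Zic1 was lower in animal 2 by limma (-1.29 ± 0.18, SE, adjusted p = 0.0470). Summed levels of the astrocyte and Bergmann glia list were 13734 to 14020 in animal 1 and 10486 to 11691 in animal 2. Those of the oligodendrocyte list were 4775 to 5065 and 3419 to 4306. Its 3 tested markers went both ways. Cnp stood at -0.69 ± 0.15 (SE, limma), Mbp at 0.13 ± 0.18 and Olig1 at 0.52 ± 0.28. Summed levels of the interneuron list overlapped, at 1343 and 1651 in animal 1 and 1570 and 1477 in animal 2. Most microglia and vessel markers gave no signal, with 9 of 11 and 7 of 10 below the bound on every array. The microglia list summed to 384 and 277 in animal 1 and 172 and 189 in animal 2, whereas its median log2 level was 0.95 and 0.71 against 2.47 and 2.71. The vessel list summed to 767 and 808 in animal 1 and 545 and 500 in animal 2. Its 2 tested markers also went both ways, with Slc2a1 at -0.66 ± 0.24 (SE, limma) and Rgs5 at 0.20 ± 0.42. Purkinje cell markers summed to 78530 and 79578 in animal 1 and to 84600 and 84938 in animal 2. Of 24 Purkinje marker probe sets, limma called 2 higher and 1 lower in animal 2. Pcp2 was higher (0.57 ± 0.07, SE, adjusted p = 0.0375), while Gng13 stood at -0.21 ± 0.04 (adjusted p = 0.0978) and Rora at -0.13 ± 0.08 (adjusted p = 0.445), neither called. The part of these shifts in the differences of Hsp90aa1, Cct3, Cct4, Hspa1b, Dnajb6 and Dnajc5 was not tested.

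**Figure D4:**
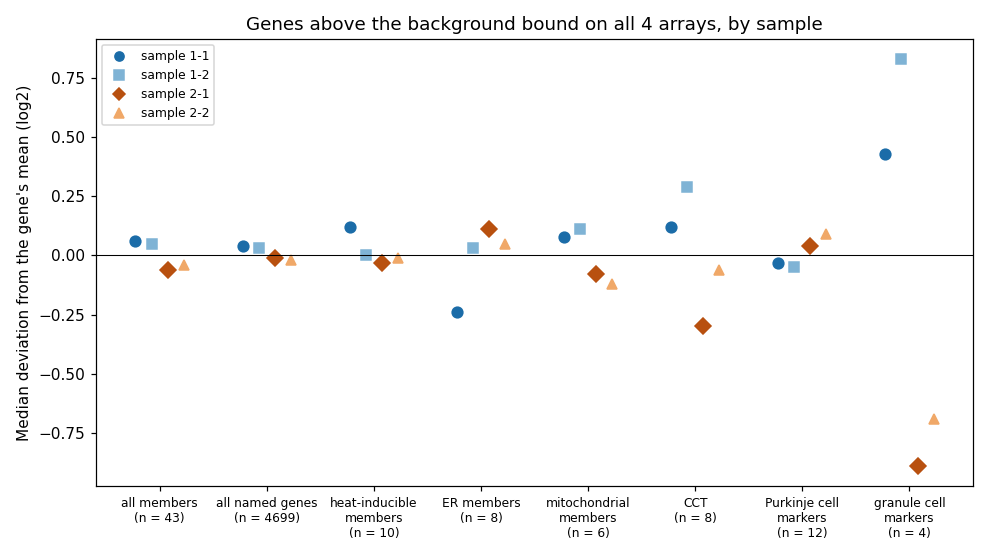
Median deviation of each sample from the gene's own mean (y axis, log2) for lists of genes above the background bound on all 4 arrays, with n the number of genes. Sample medians of all 43 members stay between -0.06 and 0.06, CCT genes run from -0.30 to 0.29, and granule cell markers from -0.89 to 0.83 with both samples of animal 1 above both of animal 2.

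The members varied little among the samples. Over the 43 genes above the bound on all 4 arrays, the median range from lowest to highest sample was 0.51 on the log2 scale, and over all 4699 such genes it was 0.74. A range under 0.5 was found for 21 of the 43 (48.8%) and for 27.3% of all. The 49 members tested had a median level of 9.40 in animal 1, against 7.73 for all genes tested, and the part of level in the smaller range was not tested. Ranges over 1 occurred in 6 members, Hspa1b (1.98), Tcp1 (1.71), Dnajc12 (1.29), Dnajc30 (1.26), Dnajb11 (1.23) and Hsp90b1 (1.07), of which Dnajc12, a protein of amino acid hydroxylase folding, and Dnajc30, a mitochondrial member, were named after their values were seen.

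Pairs of samples were compared over the same 43 genes. The median absolute difference (log2) was 0.15 for samples 1-1 and 1-2 and 0.25 for samples 2-1 and 2-2. It was 0.24 to 0.35 for the 4 pairs that cross animals. Over these 43 genes, then, the animal 2 pair was not closer than every pair from different animals. Over all 4699 genes above the bound on all 4 arrays, the median was 0.20 for samples 1-1 and 1-2 and 0.35 for 2-1 and 2-2. There it was 0.39 to 0.40 across animals, so both pairs of an animal were closer than every pair from different animals. With 2 samples against 2, a two-sided exact permutation test can give no p below 0.333.

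Other genes of the chaperone pathway were counted in the same way. Among 71 measured genes of 5 lists, 41 passed the bound on all 4 arrays (27 with the bound at the 99th percentile). Of all named genes 25.8% passed, and 15.8% with the bound at the 99th percentile. Between the animals limma called 0 of their 77 probe sets, with 16 at an unadjusted p under 0.05 (20.8%, against 19.1% of all). Cochaperones passed the bound in 19 of 30 cases. St13, which links Hsp70 to Hsp90, was at 10.74, 10.74, 10.90 and 10.55, and Chordc1, an Hsp90 cochaperone, at 10.78, 10.82, 10.30 and 10.55. Bag3, the stress-inducible partner of Hsp70 in selective autophagy, lay below the bound on all 4 arrays and was named after its values were seen.

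Prefoldin, which hands new actin and tubulin chains to CCT, and phosducin-like cofactors of CCT passed in 8 of 10 cases. Among all named genes 25.8% passed. Pdcl was at 9.97, 9.98, 9.93 and 10.30 and Txndc9 at 10.35, 10.52, 9.92 and 9.30. Genes of the endoplasmic reticulum stress response passed in 10 of 16 cases, with the transcription factor gene Xbp1 at 11.51, 11.58, 11.43 and 11.51 and the lectin chaperone gene Calr at 11.49, 11.47, 11.26 and 11.16.

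Genes of the small heat shock protein list passed in 3 of 10 cases (30%), near the 25.8% of all named genes. Hspb11 was at 9.04, 8.91, 8.71 and 9.03 and Cryab, the alpha B crystallin also made by glia, at 8.33, 9.01, 7.80 and 7.78, with both samples of animal 1 higher. Of 5 measured genes of the heat shock factor list only Hsbp1, a binding protein of the factors, passed on all 4 arrays, at 9.32, 8.87, 9.34 and 9.66. The other 4 measured genes of that list lay below the bound on every array, among them Hsf5 at 2.06, 3.86, 3.69 and 3.35. Hsf1 was not among the 5 measured genes, so its signal was not assessed.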

How the data were processed

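The authors deposited 1 intensity signal per probe set and array, on a linear scale, from the GCOS software, per the submitters' processing notes. The sources used here give neither its version nor its algorithm and scaling. The table held 45101 probe sets. Gene symbols were read from GEO's platform annotation, and 932 probe sets with several symbols stayed unnamed. Without control probe sets, signals were floored at 0.1 and turned to log2. Trimmed means (2% from each end) differed by 46.6% of their average, above the 5% allowed, so quantile normalization was applied in limma 3.58.1 (R 4.3.3). Animals were compared by lmFit and eBayes (with mean-variance trend) and Benjamini-Hochberg adjustment over all 9890 probe sets at 0.05. Means ± SD are over 2 animals. The background list kept 78 of 85 genes, and all lists together 280 of 298. No set test was made.

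Genes named were all Hsp70, Hsp110, Hsp90, Hsp60, Hsp10 and CCT members, the 3 brightest of each DNAJ class, 9 chosen for known roles, the called members and 5 with the smallest p in each direction, and the 2 brightest of each other list. Members and lists were chosen with earlier results of these data known. Promoters (59 of 72 members matched) came from RefSeq, GRCm38.p6, the only build used for coordinates. The steps were tested on simulated data. Alternatives were other bounds, normalizations, probe set choices, filters, an offset of 16, no trend, and leaving out each sample.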

Additional observations from a re-analysis of the deposited data

Results flagged for a closer look

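Of 41 named levels examined, 4 had 1 sample far from the other 3 of the group by Dixon's test, where chance alone sets apart about 1 in 20. Tcp1, the CCT alpha subunit, was lowest in sample 2-1 (7.84, against 9.39 to 9.55 in the other samples), and Dnajb1, the heat-inducible J-domain gene, was lowest in the same sample (10.46, against 11.08 to 11.11). Hspa14 was highest in sample 1-1 (7.53, against 7.25 to 7.27), and Cct6a was lowest in sample 1-2 (10.99, against 11.15 to 11.18).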

How the results depend on the processing

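The count of 43 members above the bound stayed within 1.5 times under every alternative run for it. It was 58 with the bound at the 90th percentile (37.6% of all genes) and 32 at the 99th (15.8% of all genes). With the median over probe sets it was 34 (17.5% of all). Without probe sets ending in _s_at, _x_at or _a_at it was 31 of 67 (22.8% of all). It was 43 to 44 with a sample left out. The 41 genes of the other pathway lists fell to 27 at the 99th percentile. Member probe sets called between animals by limma numbered 1 in the main setting and with 16 added before log2. They numbered 5 with values as deposited (661 over all probe sets, against 44 in the main setting), 4 when all 4 arrays had to pass the bound (178 over all), and 0 with trimmed-mean scaling, the median over probe sets, no _s_at, _x_at or _a_at probe sets, no filter, or no mean-variance trend (4 to 15 at an unadjusted p under 0.05). With a sample left out they numbered 0 to 8 (1 to 925 over all); the lone sample is then assumed to vary like the pair of the other animal. The members' median difference of -0.13 was 0.39 with values as deposited, -0.04 with the median over probe sets, -0.06 without _s_at, _x_at and _a_at probe sets, -0.05 with no filter, and -0.12 to -0.07 with a sample left out. Between-animal less within-animal spread of 0.09 was 0.22 with values as deposited and 0.02 to 0.14 with a sample left out. With the median over probe sets the differences of Hsp90aa1 (-0.22), Hspa9 (-0.02) and Cct4 (0.42) changed sign. That setting takes another probe set; for the other shifts the cause was not tested. Across the settings, named levels moved by at least the SD over their samples in 60 comparisons with the main setting and stayed within it in 304. Without probe sets ending in _s_at, _x_at or _a_at, Hspa8 was at 3.92, Cct3 at 1.62, Cct8 at 1.25 and Dnaja3 at 1.55. Hspa5 then had no probe set left, while Hspa9 (9.99), Hspa4 (10.19) and Hspd1 (9.38) stayed. No paired analysis was possible because there is 1 group and sample numbers of the 2 animals do not pair.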
